A study of Ovis aries with 24 samples.

Results

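The genes described here encode the proteins of the mitochondrial ribosome. They were taken as every entry whose symbol starts with MRPL or MRPS followed by a number, which gave 74 genes of the 27716 entries in each of 2 count tables, one for liver and one for periventricular white matter (PVWM), the tissue beside the brain's lateral ventricles. Of the 74 symbols, 46 were MRPL and 28 were MRPS. By the assignments used for mammalian mitochondrial ribosomes, 48 encode proteins of the large subunit and 25 proteins of the small subunit. MRPS30 and MRPS18A sit in the large subunit despite their names. The remaining gene, MRPS36, encodes a component of the 2-oxoglutarate dehydrogenase complex and not a ribosomal protein. A second division separated 45 genes of families shared with bacterial ribosomes from 29 found in mitochondria alone.

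Mitochondrial ribosomes translate the few messages encoded by mitochondrial DNA, all of which are subunits of the oxidative phosphorylation complexes. Their proteins are encoded in the nucleus, made on cytosolic ribosomes and imported, and they assemble on mitochondrial ribosomal RNA with the help of dedicated GTPases, methyltransferases and chaperones. Liver, rich in mitochondria and active in oxidative metabolism, and developing white matter, with its energy demand during myelination, both depend on this supply. Roles of single proteins given here are known from human, bovine or bacterial ribosomes and not from sheep.

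The RNA came from preterm lambs (Ovis aries) of 3 groups with 4 animals per tissue. In the budesonide group, lambs were ventilated and received intratracheal poractant alfa surfactant at 2.5 mL/kg with budesonide, a glucocorticoid, at 0.25 mg/kg. Lambs of the surfactant group were ventilated with that dose of surfactant and no budesonide, and the unventilated group received neither. The title of the series calls the ventilation injurious; its length is not given in the sources used here. Budesonide lambs were 126 days of gestation and female, except animal 054, a male of 127 days. Surfactant lambs were likewise 126 days and female, except animal 007, a male of 127 days. Of the unventilated lambs, 057 and 058 were males of 127 days and the others, 059, 060 and 061, were 128 days. Animal 059 (liver only) was female, 060 was labelled female for PVWM and without a sex for liver, and no sex was given for 061 (PVWM only). Ventilation and gestational age were therefore nearly confounded. There were 13 animals, of which 11 gave both tissues.

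Liver libraries totalled between 16.1 and 23.2 M counts (1 M is 1000000) and PVWM libraries between 14.9 and 17.5 M. Tissue identity was checked with marker genes. The 9 hepatocyte markers summed to at least 210721 counts per 1000000 (CPM) in every liver library, and in PVWM to between 65.1 and 208 CPM with FGA at 0 in all 12 libraries, whereas 3 neuronal markers summed to at least 3022 CPM in PVWM. All 74 genes passed the low-count filter in both tissues, so none was lost. Since gene lengths are not used here, CPM values are compared between samples and not between genes. These are bulk samples, in which fewer cells of a type and less RNA per cell cannot be told apart.

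Together the 74 genes took 0.12 to 0.129% of liver counts in budesonide lambs, 0.104 to 0.132% in surfactant lambs and 0.161 to 0.177% in unventilated lambs. Both ventilated groups lay below every unventilated liver. These are shares of raw totals, on which the median of all tested genes fell too. With total-count scaling its log2 change was -0.33 in surfactant and -0.21 in budesonide livers, beside -0.71 and -0.50 for the 74. Among the surfactant livers, 007 alone stood at 0.132% and the other 3 at 0.104%. In PVWM the share was 0.189 to 0.203% in budesonide lambs, 0.182 to 0.208% in surfactant lambs and 0.188 to 0.203% in unventilated lambs, and the 3 ranges overlapped almost fully.

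**Figure D1:**
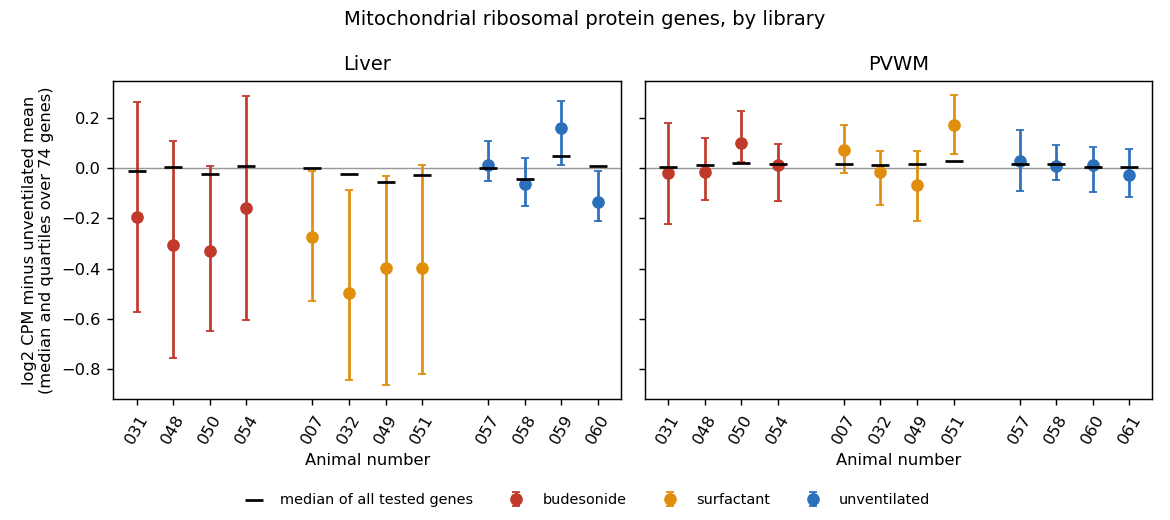
Median and quartiles, over the 74 mitochondrial ribosomal protein genes, of each library's log2 CPM minus the unventilated mean of that tissue, with black dashes for the median of all tested genes. The 4 budesonide livers had medians between -0.33 and -0.16 and the 4 surfactant livers between -0.50 and -0.27, while PVWM medians of all 12 libraries lay between -0.07 and 0.17.

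Ventilation with surfactant was first set against no ventilation, in liver. With edgeR's quasi-likelihood test and Benjamini-Hochberg adjustment over 16824 genes, 32 of the 74 genes were lower and 3 were higher in surfactant livers at an adjusted p under 0.05. Over all genes tested, 19.5% were called lower and 21.6% higher, so the lower calls among the 74 were more frequent than the background and the higher calls less frequent. The median log2 change of the 74 was -0.41, beside -0.02 over all genes, and the quartiles were -0.75 and 0.06. Thus 39 genes were not called, and the set did not move as a block: single changes ran from -1.92 to 1.42.

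Among large-subunit genes 19 of 48 fell and 3 rose, and among small-subunit genes 13 of 25 fell and 0 rose. Of the genes from bacterial families 24 of 45 fell and 2 rose, and of those found in mitochondria alone 8 of 29 fell and 1 rose. The difference between these subgroups was not tested.

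Among large-subunit proteins, MRPL43, which has no bacterial counterpart, showed the lowest level relative to unventilated liver. Its level was 21.6, 13.0, 6.94 and 6.12 CPM in surfactant livers 007, 032, 049 and 051, against 44.3, 37.3, 51.9 and 46.4 CPM in unventilated livers 057, 058, 059 and 060. Every surfactant liver lay below every unventilated liver, with 007 the highest of its group. The log2 change was -1.92 ± 0.33 (SE; edgeR adjusted p = 0.000833).

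MRPL22, whose bacterial relative lines the tunnel through which the new chain leaves the ribosome, was measured at 5.78, 2.70, 2.66 and 1.80 CPM in surfactant livers and at 10.1, 8.21, 10.6 and 8.30 CPM in unventilated livers. The groups did not overlap, and 007 was again nearest to the unventilated livers. Its log2 change was -1.52 ± 0.32 (SE; edgeR adjusted p = 0.00258). MRPL30, a relative of bacterial protein L30, reached 3.44, 2.10, 1.83 and 2.01 CPM in surfactant livers and 6.40, 4.52, 5.41 and 5.26 CPM in unventilated livers, with a log2 change of -1.20 ± 0.25 (SE; edgeR adjusted p = 0.0024). MRPL51, a large-subunit protein found in mitochondria alone, averaged 9.98 ± 4.14 CPM in surfactant livers and 21.9 ± 2.30 CPM in unventilated livers (SD, n = 4 each), a log2 change of -1.14 (edgeR adjusted p = 0.0026). In each of these genes animal 007 gave the highest surfactant value, yet still lay below all 4 unventilated livers.

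MRPL27, whose bacterial relative reaches toward the peptidyl transferase centre, varied less among surfactant livers. It stood at 13.2, 10.1, 11.5 and 8.64 CPM in surfactant livers, against 21.2, 18.6, 26.0 and 20.3 CPM in unventilated livers. No values overlapped, and the log2 change was -0.98 ± 0.17 (SE; edgeR adjusted p = 0.000868). MRPL34, of another bacterial family, averaged 20.7 ± 7.39 CPM in surfactant livers and 41.3 ± 8.70 CPM in unventilated livers (SD, n = 4 each), with a log2 change of -1.0 (edgeR adjusted p = 0.00463). MRPL44, a protein with a ribonuclease III-like fold, had a log2 change of -0.81 (edgeR adjusted p = 0.0182), and this call was lost without unventilated animal 058 (adjusted p = 0.0512).

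Of the small-subunit genes, MRPS5 had 7.17, 7.80, 5.44 and 4.94 CPM in surfactant livers and 10.7, 16.6, 17 and 12.3 CPM in unventilated livers. All 4 surfactant values were below the lowest unventilated one, and the log2 change was -1.16 ± 0.22 (SE; edgeR adjusted p = 0.0014). MRPS34, a mitochondria-only protein of the small subunit, had 18.2, 13.7, 11.5 and 7.40 CPM in surfactant livers and 29.2, 23.4, 25.3 and 24.6 CPM in unventilated livers. Its groups were again apart, with a log2 change of -1.01 ± 0.25 (SE; edgeR adjusted p = 0.00729). MRPS12, the relative of a bacterial protein at the decoding centre, averaged 12.3 ± 1.45 CPM in surfactant livers and 21.4 ± 2.40 CPM in unventilated livers (SD, n = 4 each), a log2 change of -0.79 (edgeR adjusted p = 0.00344). MRPS16, the counterpart of a small-subunit protein of bacteria, had a log2 change of -0.48 (edgeR adjusted p = 0.0293), a call lost without surfactant animal 032 or unventilated animal 057 or 059, at adjusted p = 0.0578 to 0.0907.

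The genes that rose were all of the large subunit. MRPL42, found in mitochondria alone, stood at 12.1, 20.8, 27.7 and 24.7 CPM in surfactant livers and at 7.94, 7.75, 9.99 and 6.29 CPM in unventilated livers. Animal 007 gave the lowest surfactant value and the groups did not overlap. The log2 change was 1.42 ± 0.25 (SE; edgeR adjusted p = 0.00102).

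MRPL17, of a bacterial family placed near the tunnel exit, stood at 52.5, 59.3, 82.2 and 98.2 CPM in surfactant livers and at 37.9, 37.9, 38.6 and 44.7 CPM in unventilated livers. All surfactant values were higher, with a log2 change of 0.88 ± 0.19 (SE; edgeR adjusted p = 0.00317). MRPL33, a relative of bacterial protein L33, averaged 16.7 ± 6.10 CPM in surfactant livers and 10.02 ± 1.46 CPM in unventilated livers (SD, n = 4 each), a log2 change of 0.74 (edgeR adjusted p = 0.0466). That MRPL33 call was lost when any 1 of 8 libraries was left out (budesonide 031 or 048, surfactant 049 or 051, or any unventilated liver), at adjusted p = 0.0507 to 0.181, and also with upper-quartile or total-count scaling (0.0735 and 0.204).

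Other proteins of the ribosome did not pass the test. MRPL3, which in bacteria lies close to the catalytic centre, averaged 9.90 ± 1.29 CPM in surfactant livers and 9.96 ± 0.918 CPM in unventilated livers (SD, n = 4 each; log2 change -0.01, edgeR adjusted p = 0.965). MRPS22, of the small subunit, averaged 18.8 ± 2.05 CPM in surfactant livers and 17.8 ± 1.87 CPM in unventilated livers (SD, n = 4 each; log2 change 0.08, edgeR adjusted p = 0.702). Neither difference exceeded the spread between animals. MRPS30 and MRPS18A, the large-subunit proteins with small-subunit names, had log2 changes of -0.31 and 0.17 (edgeR adjusted p = 0.104 and 0.462). For MRPS30 the groups did not overlap, at 8.32 to 9.77 CPM in surfactant livers and 10.8 to 12 CPM in unventilated livers, and total-count scaling called it lower (log2 change -0.61, adjusted p = 0.00918). MRPS36, the non-ribosomal protein, had a log2 change of -0.40 (edgeR adjusted p = 0.17), which passed the threshold only with surfactant animal 007 left out (log2 change -0.64, adjusted p = 0.02), with both ventilated males left out (adjusted p = 0.0123) or with total-count scaling (adjusted p = 0.0435).

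**Figure D2:**
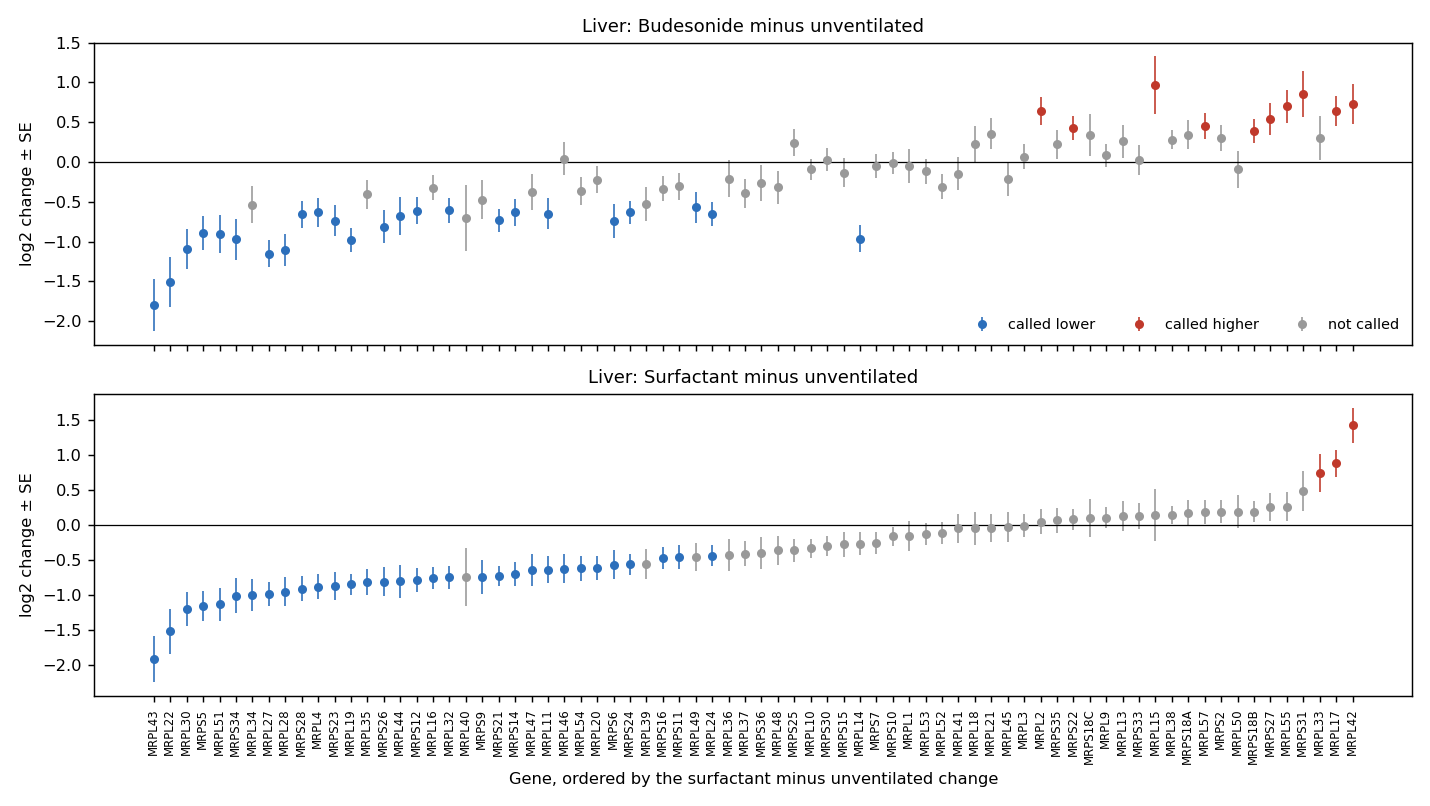
Log2 change ± SE in liver for each of the 74 genes, with budesonide minus unventilated above and surfactant minus unventilated below, in the order of the surfactant changes. Called genes are coloured: 24 lower and 10 higher with budesonide, 32 lower and 3 higher with surfactant, and both panels share the 4 unventilated livers.

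Livers of budesonide lambs were then set against the same 4 unventilated livers. Here 24 of the 74 genes were called lower and 10 higher, beside 23.7% lower and 23.3% higher over all genes tested, and the median log2 change was -0.29 beside 0.00 over all genes. Lower calls numbered 14 of 48 in the large subunit and 10 of 25 in the small subunit, and higher calls 6 and 4. The split depended on the scaling: upper-quartile scaling gave 32 lower and 5 higher, where 26.8% of all genes were lower and 19.7% higher. Total-count scaling gave 33 lower and 1 higher, where 30% of all genes were lower and 16.4% higher, with the median of all genes then at -0.21.

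MRPL43 had 13.1, 11.8, 14.2 and 12.5 CPM in budesonide livers 031, 048, 050 and 054, all far below the unventilated values given above. The log2 change was -1.80 ± 0.33 (SE; edgeR adjusted p = 0.000763). MRPL22, at 2.56, 2.64, 3.84 and 3.98 CPM in budesonide livers, changed by -1.51 ± 0.32 (SE; edgeR adjusted p = 0.00198). For both genes the budesonide livers were closer to each other than the surfactant livers were.

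MRPL27 averaged 9.65 ± 0.983 CPM in budesonide livers and 21.5 ± 3.20 CPM in unventilated livers (SD, n = 4 each), a log2 change of -1.15 (edgeR adjusted p = 0.000187). MRPL28, of a bacterial family, had 20.6, 18.3, 20.3 and 23.8 CPM in budesonide livers and 48.6, 45.4, 51.6 and 33.2 CPM in unventilated livers, a log2 change of -1.11 (edgeR adjusted p = 0.000861). The groups were apart in both genes, with unventilated animal 060 lowest of its group for MRPL28. MRPL19 averaged 13.3 ± 1.63 CPM in budesonide livers and 26.2 ± 3.10 CPM in unventilated livers (SD, n = 4 each; log2 change -0.98, edgeR adjusted p = 0.000264). MRPL30, MRPS34 and MRPL14 changed by -1.09, -0.97 and -0.97 (edgeR adjusted p = 0.00304, 0.00718 and 0.000622).

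MRPS31, a mitochondria-only protein of the small subunit, was higher, with 34.3, 34.7, 43.4 and 24 CPM in budesonide livers against 21.1, 18.2, 19.8 and 16.2 CPM in unventilated livers. So was MRPL2, a protein of the peptidyl transferase region in bacteria, with 23.6, 20.8, 20.2 and 21.8 CPM in budesonide livers against 14.9, 14, 14.2 and 12.3 CPM in unventilated livers. Neither gene's groups overlapped. The log2 changes were 0.86 for MRPS31 and 0.64 for MRPL2 (edgeR adjusted p = 0.026 and 0.00993). MRPL55, of a bacterial family, changed by 0.70 and MRPL17 by 0.64 (edgeR adjusted p = 0.0146 and 0.014), and these, like MRPL2, stayed called without any single liver. MRPL42, MRPS27 (a protein with pentatricopeptide repeats), MRPL57 and MRPS22 changed by 0.73, 0.54, 0.45 and 0.43 (edgeR adjusted p = 0.0301, 0.0418, 0.0415 and 0.0347). The higher calls of MRPS31, MRPL42, MRPS27, MRPL57 and MRPS22 were each lost when any 1 of 4, 5, 9, 9 and 7 of the 12 livers, in that order of genes, was left out, at adjusted p = 0.0509 to 0.113. Total-count scaling ended the higher calls of all of these genes except MRPL17, and the direction of each was kept.

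Gestational age bears on both sets of calls. With age in days as a covariate in the edgeR fit, 0 of the 74 genes were called between surfactant and unventilated livers, with the smallest adjusted p at 0.058 and the median log2 change at -0.26. Of all genes tested, 3.07% were then called lower and 5.24% higher. At an unadjusted p under 0.05 stood 20 of the 74 genes (27%), beside 26.2% of all genes. Between budesonide and unventilated livers, 6 genes were called, all lower, among them MRPL27, MRPL28, MRPL19 and MRPL14, at adjusted p = 0.0256, 0.0441, 0.0415 and 0.0334. That is 8.11% of the 74, beside 8.67% of all genes called lower in the same fit, a share near the background. That covariate rests on few animals, since 6 of the 8 ventilated lambs were younger than every unventilated lamb. Set beside the unventilated livers of the same age and sex, 057 and 058, surfactant liver 007 lay below both in 51 of 74 genes (68.9%), where all tested genes gave 41.3%, with a median log2 difference of -0.30. Budesonide liver 054 lay below both in 43 of 74 genes (58.1%), where all tested genes gave 43.7%, with a median of -0.17. With 1 ventilated animal each, these 2 counts have no test, and the effects of age and ventilation cannot be told apart in the other lambs. The edgeR fit with sex as a covariate also left out unventilated liver 060, which had no sex label. In it the calls of MRPL33, MRPL44 and MRPS16 between surfactant and unventilated livers were lost (adjusted p = 0.172, 0.0979 and 0.0628). Lost too were those of MRPS31, MRPL42, MRPL17, MRPS27, MRPL57 and MRPS22 between budesonide and unventilated livers (adjusted p = 0.0592 to 0.211). Leaving out liver 060 alone, without the covariate, already ended the MRPL33 call (edgeR adjusted p = 0.0926). It likewise ended those of MRPS31, MRPL42, MRPS27, MRPL57 and MRPS22 with budesonide (edgeR adjusted p = 0.0696 to 0.0946). For these genes the covariate and the loss of 060 cannot be told apart.

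Marker sums for some cell types also differed between the liver groups. The 8 myeloid markers summed to 288 to 356 CPM in budesonide livers, 285 to 524 CPM in surfactant livers and 190 to 253 CPM in unventilated livers, and 6 of 8 were called higher in surfactant livers. The 9 hepatocyte markers summed to between 213472 and 264944 CPM in budesonide livers, between 263345 and 298873 CPM in surfactant livers and between 210721 and 271401 CPM in unventilated livers. The 5 endothelial markers summed to 223 to 251 CPM in budesonide livers, 348 to 429 CPM in surfactant livers and 264 to 334 CPM in unventilated livers. The 3 cholangiocyte markers summed to 25.9 to 32.4 CPM in budesonide livers, 22.4 to 164 CPM in surfactant livers and 20.2 to 29.6 CPM in unventilated livers, and 2 of 3 were called higher in surfactant livers. Of the hepatocyte markers, 2 of 9 were called higher and 3 lower in budesonide livers, and 2 higher and 0 lower in surfactant livers, both relative to unventilated livers. Of all genes, 23.3% were higher and 23.7% lower in budesonide livers, and 21.6% and 19.5% in surfactant livers. The hepatocyte higher calls, 22.2% in both, were near those shares. Of 8 myeloid markers 3 were higher and 1 lower in budesonide livers. Of 5 endothelial markers 2 were lower in budesonide livers and 2 higher in surfactant livers. Erythroid and proliferation marker sums overlapped between all 3 groups, with none of 6 erythroid markers called. Of 6 proliferation markers, 1 (16.7%) was called higher in each ventilated group relative to unventilated livers, below the share of all genes. Between budesonide and surfactant livers, 3 of 5 endothelial, 1 of 8 myeloid and 1 of 3 cholangiocyte markers were called lower, beside 7.85% of all genes. The part of these shifts in the results was not tested.

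**Figure D3:**
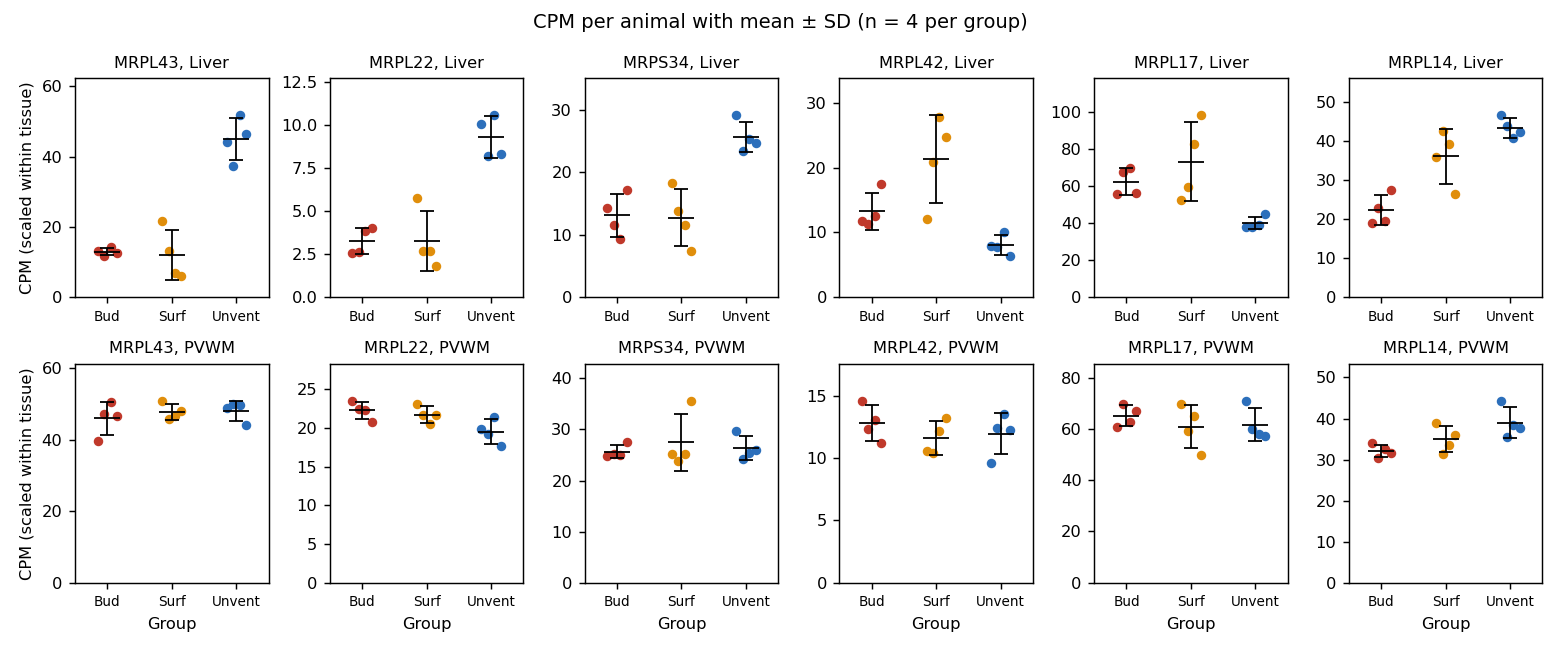
CPM per animal for 6 genes in liver (top) and PVWM (bottom), with budesonide, surfactant and unventilated lambs from left to right and bars for the mean ± SD of 4 animals. In liver MRPL43, MRPL22 and MRPS34 were lower and MRPL42 and MRPL17 higher in both ventilated groups, MRPL14 was lowest in budesonide livers, and in PVWM none of the 6 was called by edgeR in any comparison.

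Budesonide with surfactant against surfactant alone, the comparison of the steroid itself, gave few calls in liver. Of the 74 genes 2 were higher and 1 lower, where 4.01% of all genes tested were higher and 7.85% lower. The median log2 change was 0.14 beside -0.01 over all genes, and changes ran from -0.70 to 0.83.

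MRPS25, a mitochondria-only protein of the small subunit, stood at 6.05, 5.56, 6.28 and 7.07 CPM in budesonide livers and at 4.61, 3.90, 3.55 and 4.27 CPM in surfactant livers. MRPL2 stood at 23.6, 20.8, 20.2 and 21.8 CPM in budesonide livers and at 16.7, 11.1, 11.2 and 18.1 CPM in surfactant livers. Budesonide livers were higher in both genes, with no overlap. The log2 changes were 0.61 ± 0.17 for MRPS25 and 0.60 ± 0.18 for MRPL2 (SE; edgeR adjusted p = 0.0353 and 0.0458). MRPL14, a protein at the face where the subunits meet, stood at 19.0, 22.9, 19.5 and 27.4 CPM in budesonide livers and at 35.9, 42.5, 39.2 and 26.3 CPM in surfactant livers. Animal 054 and animal 051 made the groups overlap, and the log2 change was -0.70 ± 0.17 (SE; edgeR adjusted p = 0.021).

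These 3 calls sat near the threshold. The count of called genes ran from 0 to 8 when single livers were left out, and it was 0 when only the budesonide and surfactant livers were fitted. It was 0 without budesonide 031 or 048 or surfactant 032 or 049, 1 without budesonide 050 or 054 or unventilated 057 or 060, 5 without surfactant 051 and 8 without surfactant 007. Of the genes named whatever their result, MRPL3, MRPL44, MRPS12, MRPS16, MRPS22, MRPS30, MRPS18A and MRPS36 had log2 changes between 0.08 and 0.35, none called (edgeR adjusted p between 0.141 and 0.779). For MRPS30 the budesonide livers, at 9.83 to 13.1 CPM, lay above the surfactant livers, at 8.32 to 9.77 CPM, without overlap.

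Spread between animals differed among the liver groups. The median coefficient of variation over the 74 genes was 12.9% in budesonide livers, 19.4% in surfactant livers and 12.6% in unventilated livers. In PVWM it was 9.03% in budesonide lambs, 10.6% in surfactant lambs and 10.3% in unventilated lambs.

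In PVWM nearly no gene of the set was called, where few of all genes were called either. None of the 74 was called between budesonide and surfactant lambs (0.591% of 18616 genes were higher and 0.387% lower). At an unadjusted edgeR p under 0.05 stood 0 of the 74, beside 11.9% of all genes. None was called between surfactant and unventilated lambs (1.35% of all genes higher and 0.698% lower). Here 5 genes (6.76%) had an unadjusted edgeR p under 0.05, beside 14.7% of all genes. DESeq2 called 0 genes in both. It called 1.58% of all genes higher and 1.43% lower in the first comparison, and 2.64% and 1.76% in the second. The median log2 changes were -0.01 and 0.04, and single changes ran from -0.29 to 0.20 and from -0.27 to 0.47. MRPL43 averaged 45.9 ± 4.61 CPM in budesonide PVWM, 47.8 ± 2.26 CPM in surfactant PVWM and 48.1 ± 2.79 CPM in unventilated PVWM (SD, n = 4 each).

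Between budesonide and unventilated PVWM, 1 gene was called higher and 0 lower (4.35% and 3.71% of all genes). It was MRPL53, a large-subunit protein found in mitochondria alone, at 92.2, 80.4, 89.3 and 78.3 CPM in budesonide PVWM and at 61.3, 72.9, 72.4 and 70.5 CPM in unventilated PVWM 057, 058, 060 and 061. The groups did not overlap, and the log2 change was 0.30 ± 0.08 (SE; edgeR adjusted p = 0.0432). This call was lost without any 1 of 11 of the 12 libraries, surfactant 051 being the exception, at adjusted p = 0.0502 to 0.121. DESeq2 called 2 genes higher and 1 lower, adding MRPL21 (log2 change 0.32) and MRPL14 (log2 change -0.28), which in the edgeR fit had adjusted p = 0.0575 and 0.089.

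MRPS36 stood low in 1 animal, unventilated PVWM 057, at 9.99 CPM. The other unventilated animals had 38.8, 37.1 and 33.2 CPM, the budesonide lambs 29.2 to 38.4 CPM and the surfactant lambs 30.8 to 40.7 CPM. Dixon's rule, described below, did not pick out this library. The liver of the same animal had 9.87 CPM, inside the range of 8.75 to 11.6 CPM of its group.

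The difference between the tissues was tested directly, by subtracting the change in PVWM from that in liver. The fit held all 24 libraries and 20010 genes, without gestational age, which was nearly confounded with ventilation, as a covariate. For surfactant against unventilated, 22 of the 74 genes had a lower change in liver and 2 a higher one, beside 11.2% and 14.6% of all genes, with a median of -0.31 beside 0.04. MRPL43, MRPL22, MRPL30 and MRPL19 differed by -1.84, -1.61, -1.15 and -1.07 (edgeR adjusted p = 0.000371, 0.000677, 0.00307 and 0.000186). MRPL42 and MRPL17 differed by 1.54 and 0.97 (edgeR adjusted p = 0.00048 and 0.00329). With each animal as a block, 17 genes were lower and 2 higher, beside 8.55% and 10.2% of all genes. The lower calls of MRPL20, MRPL27, MRPL28, MRPL47, MRPS14 and MRPS34 were lost (adjusted p = 0.0502 to 0.245), and MRPS9 was called lower (adjusted p = 0.0411). For MRPS34 the difference was -1.05 with the block (adjusted p = 0.0512), beside -1.0 without it (adjusted p = 0.0124).

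For budesonide against surfactant, the tissues differed in 1 gene, MRPS25, by 0.81 ± 0.19 (SE; edgeR adjusted p = 0.0208), where 1.41% of all genes were higher and 2% lower. In PVWM MRPS25 had 12.2, 11.5, 15.3 and 12 CPM in budesonide lambs and 15.8, 14.1, 12.3 and 16.3 CPM in surfactant lambs, with overlap. Blocking on the animal ended the call (adjusted p = 0.0686), as did leaving out budesonide PVWM 048 (adjusted p = 0.0505). The count was 5 without surfactant liver 007, 4 without surfactant liver 051 and 2 without budesonide liver 054 or surfactant PVWM 049.

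**Figure D4:**
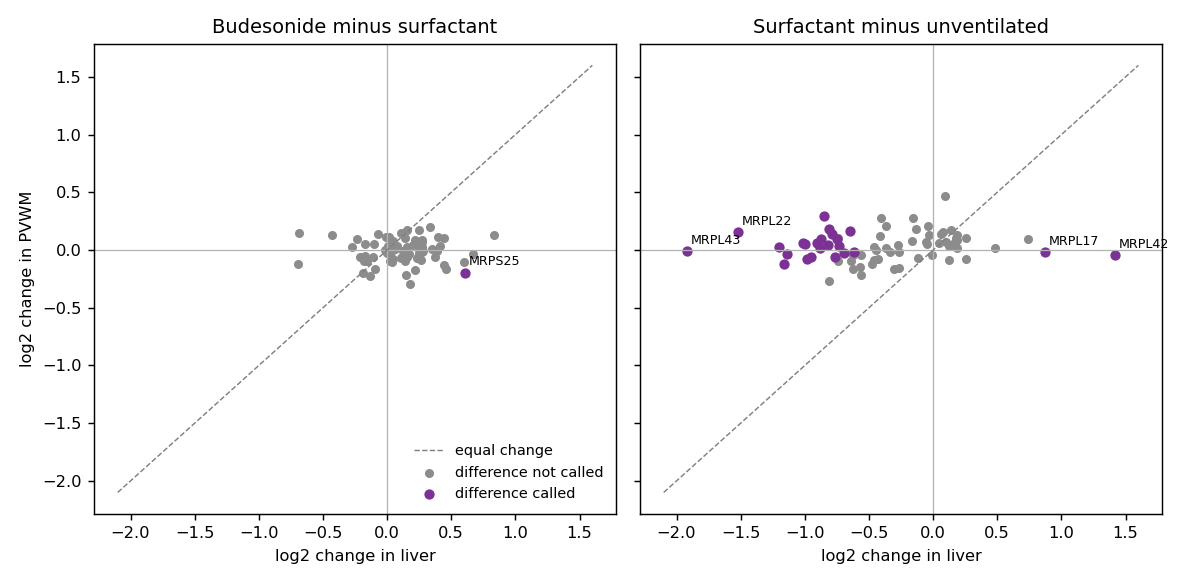
Log2 change in liver (x axis) against log2 change in PVWM (y axis) for the 74 genes, with budesonide minus surfactant on the left and surfactant minus unventilated on the right. Purple points are genes whose tissue difference was called, 1 on the left and 24 on the right, and the right panel spreads along the liver axis from -1.92 to 1.42 with PVWM changes between -0.27 and 0.47.

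Levels without treatment were set between tissues in unventilated lambs, with all libraries scaled together. Liver was higher in 36 of the 74 genes and lower in 9, beside 36.1% and 41.7% of all genes, and the median log2 difference was 0.38 beside -0.11 over all genes. With each animal as a block, liver was higher in 31 genes and lower in 8, beside 34.5% and 39.3% of all genes. The higher calls of MRPL11, MRPL18, MRPL34, MRPL39 and MRPL45 were then lost (adjusted p = 0.0514 to 0.108), and MRPL4 was called lower (log2 difference -0.32, adjusted p = 0.0402). The sign of the median without the block depended on the scaling. Without scaling factors it was -0.25 beside -0.74 over all genes, with 11 genes higher and 31 lower, so the 74 lay 0.49 above the all-gene median under either choice. Those counts are 14.9% and 41.9% of the 74, beside 23.5% and 55.5% of all genes.

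The small-subunit gene MRPS18B averaged 33.0 ± 3.98 CPM in unventilated liver and 4.71 ± 0.867 CPM in unventilated PVWM (SD, n = 4 each), a log2 difference of 2.81. MRPL50 followed at 2.21 and MRPL49, both of the large subunit and found in mitochondria alone, at 1.63. MRPS16, MRPL2, MRPL27, MRPS14 and MRPS23 were also higher in liver, by 1.06 to 1.59.

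MRPL15, a bacterial-family protein of the large subunit, was lower in liver, at 0.970 ± 0.358 CPM in unventilated liver and 11 ± 0.988 CPM in unventilated PVWM (SD, n = 4 each; log2 difference -3.48). MRPL40, found in mitochondria alone, stood at 1.16 ± 0.401 CPM in unventilated liver and 9.65 ± 1.08 CPM in unventilated PVWM (SD, n = 4 each; log2 difference -3.06). MRPS33 and MRPL3 had log2 differences of -1.29 and -1.01. These 4 had edgeR adjusted p of at most 1.27e-06. The lower calls of MRPS36 and MRPS6 (log2 differences -0.74 and -0.39) were lost with the animal block, at adjusted p = 0.233 and 0.0585. They were lost too without any 1 of 3 libraries for MRPS36 (liver 059, PVWM 058 or PVWM 060; adjusted p = 0.05 to 0.0659) and any 1 of 14 of the 24 libraries for MRPS6 (at most 0.144).

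Other genes of mitochondrial translation were examined in lists. Over all genes tested, 23.7% were lower and 23.3% higher in budesonide livers relative to unventilated ones. In surfactant livers 19.5% were lower and 21.6% higher. Of 6 ribosomal subunits with other symbols, 3 fell and 0 rose in surfactant livers relative to unventilated ones: CHCHD1, ICT1 (a ribosome-borne peptidyl-tRNA hydrolase) and AURKAIP1, by log2 changes of -0.62, -0.57 and -0.43 (edgeR adjusted p = 0.0069, 0.0108 and 0.0178). In budesonide livers ICT1 was lower (-0.44, edgeR adjusted p = 0.0333) and PTCD3, a pentatricopeptide repeat protein of the small subunit, was higher (0.83, edgeR adjusted p = 0.00201). An entry without a gene symbol that RefSeq (assembly ARS-UI_Ramb_v3.0) names MRPL23 was also lower, by log2 changes of -1.23 in budesonide livers and -0.86 in surfactant livers (edgeR adjusted p = 0.000303 and 0.00395). A second entry for MRPL17 was not called. MRPL37 also had a second entry, whose values are not given here. How reads are divided between near-identical gene copies is uncertain in such counts.

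Assembly factors had 7 of 18 lower and 2 higher in budesonide livers, and 8 of 18 lower and 2 higher in surfactant livers, both relative to unventilated livers. The lower shares were 38.9% and 44.4%, beside 23.7% and 19.5% of all genes. Higher shares were 11.1% in both, beside 23.3% and 21.6% of all genes. MALSU1, which keeps the immature large subunit from joining the small one, changed by -1.08 with budesonide and -1.27 with surfactant, and METTL15, a small-subunit ribosomal RNA methyltransferase, by -1.33 and -1.22. NOA1, a GTPase of small-subunit assembly, was higher, by 1.68 with budesonide and 1.10 with surfactant. The edgeR adjusted p of these 3 genes were at most 0.00255.

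Translation factors had 3 of 11 lower and 0 higher in budesonide livers, and 5 of 11 lower and 1 higher in surfactant livers. The lower share with budesonide, 27.3%, was near the 23.7% of all genes. With surfactant it was 45.5%, beside 19.5% of all genes. GUF1, the mitochondrial relative of bacterial elongation factor 4, was lower by log2 changes of -1.56 and -1.35 (edgeR adjusted p = 0.000337 and 0.00125). The gene that rose with surfactant was MRRF, the ribosome recycling factor, at 1.67 (edgeR adjusted p = 0.003). Mitochondrial aminoacyl-tRNA synthetases and related enzymes had 7 of 20 lower in each ventilated group, with 0 higher in budesonide livers and 1 in surfactant livers. That is 35% lower in each, beside 23.7% and 19.5% of all genes.

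Transcription and RNA-processing genes had calls in both directions, with 4 of 17 higher and 3 lower in budesonide livers and 4 of 17 higher and 2 lower in surfactant livers, at median log2 changes of 0.22 and -0.30. The higher share, 23.5% in both, was near that of all genes (23.3% and 21.6%). The lower shares, 17.6% and 11.8%, were below those of all genes (23.7% and 19.5%). TFB2M, the factor that opens mitochondrial promoters, was higher by 2.02 and 1.78 (edgeR adjusted p = 0.000146 and 0.000555). Among 10 nuclear regulators of mitochondrial genes, 4 were higher and 1 lower in budesonide livers, and 3 higher and 1 lower in surfactant livers. These higher shares, 40% and 30%, rest on few genes and stand beside 23.3% and 21.6% of all genes. MYC was higher by 2.97 and 3.17, and PPRC1, a coactivator related to PPARGC1A, by 1.62 and 1.63 (edgeR adjusted p at most 8e-05 for both). PPARGC1A itself was higher by 1.30 in budesonide livers and 1.92 in surfactant livers (edgeR adjusted p = 0.00367 and 0.000534).

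Nuclear-encoded oxidative phosphorylation subunits, the partners of the proteins that mitochondrial ribosomes make, had 23 of 58 lower and 2 higher in budesonide livers, and 25 of 58 lower and 2 higher in surfactant livers. The lower shares were 39.7% and 43.1%, beside 23.7% and 19.5% of all genes. The median log2 changes of these subunits were -0.29 and -0.33. SDHC, a membrane anchor of complex II, changed by -1.60 and -1.34, and NDUFS1 of complex I by -1.17 and -1.13 (edgeR adjusted p at most 0.000201). Proteins of the cytosolic ribosome ran the other way, with 58 of 76 higher and 1 lower in budesonide livers, and 62 of 76 higher and 1 lower in surfactant livers, at medians of 0.66 and 0.67. The higher shares were 76.3% and 81.6%, beside 23.3% and 21.6% of all genes. With total-count scaling 32 and 26 of these ribosomal genes were called higher, beside 16.4% and 13.7% of all genes. Their medians were then 0.44 and 0.35.

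With gestational age as a covariate, 1 and 0 of the 18 assembly factors and 4 and 3 of the 58 oxidative phosphorylation genes were called lower in budesonide and surfactant livers, and 20 and 12 of the 76 cytosolic ribosomal genes higher. Lower calls then numbered 1 and 0 of 11 translation factors, 1 and 1 of 20 synthetases and 0 and 0 of the 6 subunits with other symbols. Higher calls numbered 1 and 0 of 17 transcription genes and 3 and 2 of 10 regulators, in the same order of groups. Of all genes, 8.67% and 3.07% were lower and 8.91% and 5.24% higher in the same fit. The lower calls of oxidative phosphorylation genes lay near those shares, and the higher calls of cytosolic ribosomal genes above them. In PVWM these lists gave at most 1 call each in any comparison of groups, where at most 4.35% of all genes were higher and 3.71% lower. Between budesonide and surfactant livers, calls were 1 of 18 assembly factors (ERAL1, an RNA chaperone of small-subunit assembly, 0.53), 1 of 17 transcription genes (TEFM, an elongation factor, 0.96), 1 of 10 regulators (ESRRA, a nuclear receptor, 0.57) and 1 of 76 cytosolic ribosomal genes (RPL26L1, 0.80), all higher. Over all genes tested in that comparison, 4.01% were higher.

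**Figure D5:**
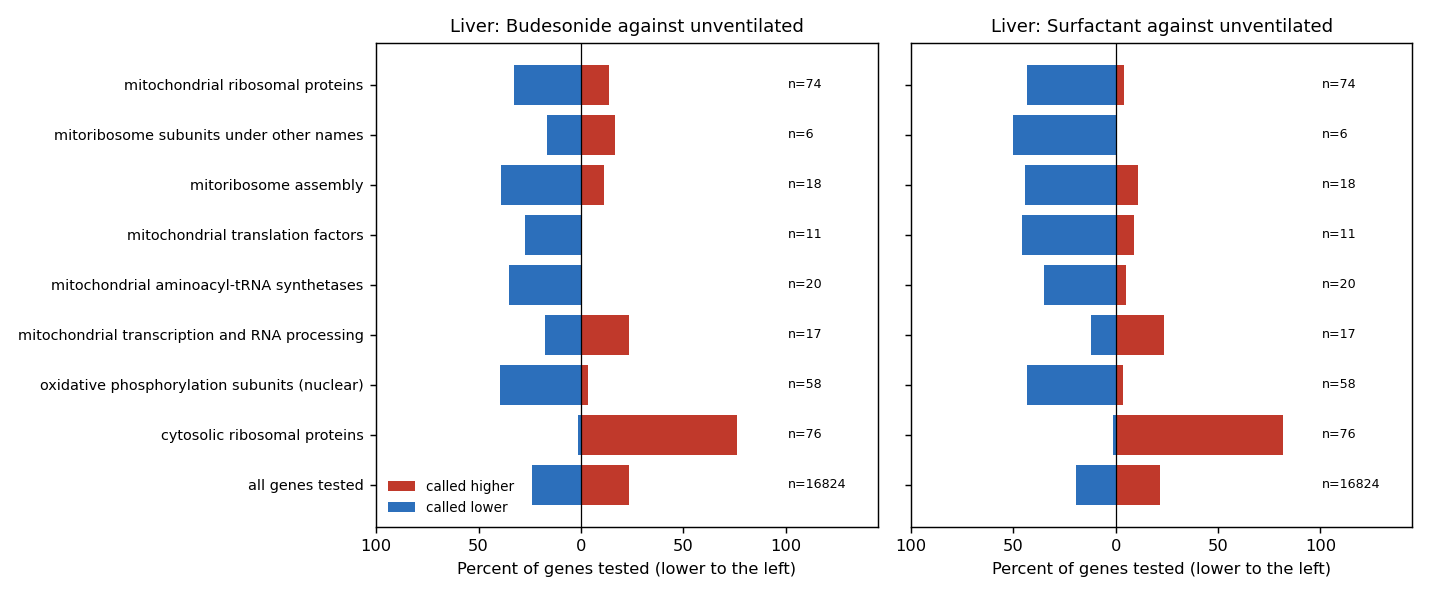
Percent of each gene list called higher (right, red) or lower (left, blue) in budesonide livers and in surfactant livers, each against the same unventilated livers, with the number of genes tested beside each bar. In surfactant livers 32 of 74 mitochondrial ribosomal protein genes were lower and 3 higher, whereas 62 of 76 cytosolic ribosomal genes were higher and 1 lower.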

How the data were processed

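Counts per gene were deposited by the authors as 1 raw count table per tissue, 12 libraries each. Per the labels' protocols, RNA was extracted with Trizol and sequenced in pairs after poly-A selection. Per the submitters' processing notes, Bowtie2, featureCounts and edgeR were used; versions, strand setting and genome build are not given in the sources used here. Poly-A selection and short reads leave near-identical gene copies uncertain.

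From these counts, genes were filtered with filterByExpr, scaled by TMM and tested with edgeR 4.0.16 (robust quasi-likelihood; R 4.3.3), with the 3 groups of a tissue in one fit and Benjamini-Hochberg adjustment over all genes tested; calls are at adjusted p under 0.05. SE was taken as |log2 change|/√F. Tissue differences came from a fit of all 24 libraries, over the 27693 entries in both tables; 23 entries per table, dates in place of symbols, differ. CPM were TMM-scaled within a tissue, or jointly for tissue levels. Medians by library use a prior count of 2. edgeR's common dispersion gave a coefficient of variation between animals of 0.304 (liver) and 0.197 (PVWM). The fits were tested on simulated data.

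Members and lists were chosen with earlier results of these data known. Named were, per comparison, up to 8 called genes per direction with the largest change among those averaging at least 1 CPM, the 5 smallest p where fewer than 3 were called, 9 genes fixed by name where surfactant alone was one of the compared groups, and up to 3 called genes per list. MRPL12, fixed by name, is not analysed here, nor is any entry under the symbols MRPL58, MRPL59 and MRPS17. ICT1, an earlier symbol of MRPL58, is among the subunits with other symbols. Any other gene was named after its values were seen. Budesonide and surfactant groups share the unventilated animals, so those comparisons are not independent. Same-numbered libraries of both tissues come from 1 animal (11 pairs; correlation of their deviations 0.0794 to 0.198, median 0.123), and a fit with the animal as block was an alternative. Others were median-ratio, upper-quartile and total-count scaling, no filter, DESeq2 1.42.0, only the compared groups, sex or gestational age as a covariate and leaving out each library. Liver 060 and PVWM 061, without a sex label, were left out of the fits with sex. Total-count scaling and leaving out both ventilated males were added after seeing the data.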

Additional observations from a re-analysis of the deposited data

Results flagged for a closer look

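Within groups of 4 animals, a library was picked out where its gap to the nearest other value took more of the group's range than Dixon's 95% critical value allows. Of 147 groups tested, 10 were picked out (6.8%), and chance gives about 1 in 20. In liver these were the share of counts in the 74 genes of surfactant animal 007 (0.132%, high), MRPL30 of the same animal (3.44 CPM, high), MRPL28 of surfactant animal 051 (14.5 CPM, low), MRPL44 of budesonide animal 050 (11 CPM, high) and MRPL17 of unventilated animal 060 (44.7 CPM, high). In PVWM they were the share of counts of budesonide animal 050 and of unventilated animal 057 (both 0.203%, high), MRPL44 of budesonide animal 050 (30.1 CPM, high), MRPS12 of budesonide animal 048 (25.6 CPM, high) and MRPL3 of unventilated animal 060 (40.6 CPM, high). MRPL44 stood high in both tissues of animal 050.

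The change between groups differed between tissues in 13 named genes, by edgeR's test of the liver change minus the PVWM change. Gestational age, nearly confounded with ventilation, was not a covariate in that fit. With the animal as block, the calls of MRPS25 and MRPS34 were lost (edgeR adjusted p = 0.0686 and 0.0512). For budesonide against surfactant it was MRPS25 (0.81). For surfactant against unventilated the liver change was higher in MRPL42 (1.54) and MRPL17 (0.97), and lower in MRPL43 (-1.84), MRPL22 (-1.61), MRPL30 (-1.15), MRPL19 (-1.07), MRPL51 (-1.03), MRPS34 (-1.0), MRPL34 (-0.97), MRPS5 (-0.97), MRPL44 (-0.93) and MRPS12 (-0.85).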

How the results depend on the processing

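Counts of called genes for surfactant against unventilated liver ran from 26 to 37 without single libraries and for budesonide against unventilated liver from 26 to 37, and from 21 to 27 and 39 to 48 for the tissue difference of surfactant against unventilated and the unventilated tissue level. Gestational age as a covariate gave 0 and 6 calls for surfactant and for budesonide against unventilated in liver. Age is nearly confounded with ventilation, and there were 4 animals per group; the age covariate was the one alternative that ended the surfactant result.

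Total-count scaling shifted the median of all genes in surfactant against unventilated liver to -0.33 and gave 45 calls for the tissue difference of surfactant against unventilated. In that difference 58.1% of the 74 were lower and 2.7% higher, beside 22.2% and 8.49% of all genes. In liver, budesonide against surfactant had 1 call without the filter, 5 with DESeq2, 0 with only those groups, 1 with sex as a covariate and 0 to 8 without single libraries. DESeq2 called 5.41% of the 74 higher and 1.35% lower there, beside 6.67% and 12.2% of all genes. In PVWM, budesonide against unventilated had 0 calls without the filter, with only those groups, with sex or with age as a covariate, 3 with DESeq2 and 0 to 1 without single libraries. With DESeq2, 6.01% of all genes were higher and 5.41% lower in that comparison, beside 2.7% and 1.35% of the 74. The tissue difference of budesonide against surfactant had 3 calls with DESeq2, 0 with the animal as block and 0 to 5 without single libraries. For that difference DESeq2 called 2.7% of the 74 higher and 1.35% lower, beside 2.61% and 4% of all genes. The cause of these shifts in count was not tested. The calls of the 74 genes that the block, which follows the animal, changed are given beside the results.

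Of 63 named results that were called, 29 kept their call under all alternatives, 34 lost it under at least 1 and 0 turned direction. Of 60 not called, 8 gained a call under at least 1, among them MRPS30 for surfactant against unventilated liver and MRPS16 for that tissue difference (-0.65, adjusted p = 0.0212), both with total-count scaling, and 19 turned direction under at least 1. For surfactant against unventilated liver, MRPL3 turned to 0.021 with median-ratio scaling, 0.020 with DESeq2 and 0.0048 with sex as a covariate; MRPS22 to -0.013 with upper-quartile scaling, -0.22 with total-count scaling, -0.030 with sex and -0.0014 with age as a covariate; MRPS18A to -0.16 with total-count scaling and MRPS36 to 0.038 with age. MRPL3 in PVWM turned to 0.14 with age, and for the tissue difference to -0.020 with upper-quartile and -0.26 with total-count scaling, where MRPS18A turned to -0.21.

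Without single libraries, turned log2 changes ranged as follows. In liver, for budesonide against surfactant, MRPL3 ran from -0.00099 to 0.14, MRPL44 from -0.062 to 0.30 and MRPS36 from -0.0043 to 0.38, and for surfactant against unventilated MRPL3 from -0.10 to 0.044 and MRPS22 from -0.0017 to 0.14. In PVWM, for budesonide against surfactant, MRPL3 ran from -0.061 to 0.14, MRPL44 from -0.16 to 0.064, MRPS16 from -0.088 to 0.0038, MRPS22 from -0.036 to 0.042 and MRPS18A from -0.081 to 0.0086, and for surfactant against unventilated MRPL3 from -0.16 to 0.044 and MRPS36 from -0.016 to 0.42. For the tissue difference, MRPL3 ran from -0.061 to 0.15 and MRPL44 from -0.034 to 0.31 (budesonide against surfactant), and MRPS22 from -0.069 to 0.042 (surfactant against unventilated).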
